A study of Mus musculus with 4 samples.

Results

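Small nucleolar RNAs (snoRNAs) of the box C/D and box H/ACA classes were examined in gene counts of mouse liver over age. All symbols beginning with Snord, SNORD, Snora or SNORA were taken, without Snord13 and Snord118, and a symbol was kept if its counts over the 4 libraries summed to at least 20. This left 78 of 226 snoRNA symbols, 49 of 124 in the C/D class and 29 of 102 in the H/ACA class, out of 33924 gene symbols in all. The snoRNAs were thus selected on their summed counts, and their levels are a description. The 2 C/D snoRNAs nearest the minimum were Snord15a (22 counts) and Snord85 (32 counts) inside it, and SNORD62 (19 counts) and SNORD121A (13 counts) outside it. For the H/ACA class these were SNORA79 (20 counts) and Snora33 (25 counts) inside, and SNORA12 (17 counts) and SNORA8 (16 counts) outside. No count was found in any library for 65 C/D and 41 H/ACA symbols, and 10 and 32 symbols had between 1 and 19 counts.

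The libraries came from liver of C57BL6 mice (C57BL/6Rj in the methods of the study) aged 3, 9, 15 and 21 months, with no treatment or altered allele given in the labels. According to the methods of the study, each library was a pool of RNA of 24 male mice killed at 6 times of the day (4 mice per time), so that differences between mice and between times of day cannot be seen. There was 1 library per age, and no value has a replicate error. Uncapped RNA was digested before sequencing, and reads of 35 bases from capped 5’-ends were counted per gene symbol.

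C/D snoRNAs direct the methylation of the 2’-hydroxyl of ribose in ribosomal RNA and in spliceosomal RNA, and H/ACA snoRNAs direct the isomerisation of uridine to pseudouridine. Each class is bound by its own set of core proteins, with fibrillarin and dyskerin as the respective enzymes. In mammals most are cut out of the introns of host genes, many of which encode ribosomal proteins or other parts of the translation machinery, and the mature RNA then has no cap. Whether the reads counted here came from mature snoRNAs or from longer transcripts was not tested.

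The counts on genes were between 525772 at 15 months and 958586 at 9 months, and 3 counts corresponded to between 3.13 and 5.71 counts per 1000000 gene counts (CPM). All 6 hepatocyte markers were found in every library, with a summed level between 88164 and 98318 CPM. The summed level of 5 Kupffer cell markers was between 550 and 773 CPM, that of 4 stellate cell markers between 132 and 257 CPM, that of 4 markers of sinusoidal endothelium between 274 and 387 CPM, that of 4 cholangiocyte markers between 6.26 and 24.5 CPM, and that of 3 erythroid markers between 991 and 1710 CPM. The 3 lymphocyte markers summed to at most 6.79 CPM, and none of them was found in all libraries. Alignments that were not unique made up between 72.2% and 76.7% of the records and were not counted on any gene.

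The sequences of the snoRNAs on which the results turn are given 5’ to 3’, as read from NCBIM37 (mm9) at the annotated position. These are the single-locus snoRNAs among the 3 most abundant of each class and among those of each class whose counts differed most from counting noise, and Snord49a and SNORD16, which were added after their values had been seen. Capitals mark the box motifs. For C/D snoRNAs these are a C box within the first 20 bases and, after its end, a D box within the last 20 bases. The C box is TGATGA, or TGATG where the sixth base differs, and the D box is CTGA. For H/ACA snoRNAs the motifs are ANANNA, at most 20 bases from the middle and nearest to it (H box), and ACA within the last 10 bases.
Snord110: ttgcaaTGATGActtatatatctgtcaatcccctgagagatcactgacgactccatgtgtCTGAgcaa
Snord104: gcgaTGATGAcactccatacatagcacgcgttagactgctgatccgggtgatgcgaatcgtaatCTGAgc
Snord49a: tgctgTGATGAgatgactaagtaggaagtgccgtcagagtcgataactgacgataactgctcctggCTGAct
Snord16a: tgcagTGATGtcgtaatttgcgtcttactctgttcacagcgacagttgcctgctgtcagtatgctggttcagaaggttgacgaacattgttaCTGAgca
SNORD16: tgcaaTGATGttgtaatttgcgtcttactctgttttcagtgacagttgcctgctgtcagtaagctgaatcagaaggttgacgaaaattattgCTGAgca
Snora7a: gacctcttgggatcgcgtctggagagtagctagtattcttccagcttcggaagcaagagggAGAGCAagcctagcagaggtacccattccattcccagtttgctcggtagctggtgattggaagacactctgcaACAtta
Snora78: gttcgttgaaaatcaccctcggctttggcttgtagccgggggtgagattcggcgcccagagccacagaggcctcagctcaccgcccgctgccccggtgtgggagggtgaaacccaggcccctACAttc

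Snord110 lies at chr2:130101242-130101309 (+) in an intron of Nop56, a core protein gene of the C/D class itself, and Snord104 at chr11:106362307-106362376 (+) without an annotated host gene. Snord49a lies at chr11:62416952-62417023 (+) in the noncoding host 2410006H16Rik, together with Snord49b and Snord65. Snord16a lies at chr9:64023230-64023328 (+) and SNORD16 at chr9:64024468-64024566 (+), both in Rpl4, a gene of the large ribosomal subunit. Snora7a lies at chr6:115757993-115758132 (-) in Rpl32, and Snora78 at chr17:24856621-24856748 (-) in Snhg9, a snoRNA host gene. No sequence is given for SNORD58, SNORA55 and SNORA71, since their symbols stand for 4, 7 and 15 annotated loci and the counts do not tell which of them was read.

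The box motifs were found in nearly all snoRNAs with 1 locus. The D box motif was present in 40 of 40 C/D loci and a C box motif in 37 of 40, with all 6 letters in 26. Those without it were Snord71, Snord85 and Snord90. In the windows of equal length directly upstream, both motifs together were found in 0 of 40. Of 49 single-locus C/D symbols at 0 counts, 35 (71.4%) had both motifs. The motif ACA was present near the end of 11 of 11 H/ACA loci and in 0 of 11 upstream windows, and ANANNA near the middle of 9 of 11, compared with 6 of 11 upstream windows. Snora78 and Snora74a had no ANANNA in this window. The C/D loci were between 64 and 238 bases long (median 80.5) and the H/ACA loci between 126 and 196 bases (median 130).

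Of the single-locus snoRNAs, 38 of 40 C/D and 11 of 11 H/ACA lay within a host gene on the same strand, and 13 of these 51 snoRNAs lay in genes of cytosolic ribosomal proteins. In contrast, 9 C/D and 18 H/ACA symbols stood for several loci, up to 611 for SNORA17, and their counts are sums over copies. The symbols at 0 counts differed from the counted ones in position. Among single-locus symbols, 36 of 49 C/D and 14 of 26 H/ACA symbols at 0 overlapped an annotated exon of another gene on the same strand, compared with 1 of 40 and 0 of 11 of the counted snoRNAs. The exception was Snord42b in Rpl23a. Windows of 35 bases with a further match in the genome, at 1 mismatch or fewer, made up 3.65% of windows in counted C/D and 14.6% in counted H/ACA loci, and 6.64% and 36.7% in those at 0. A symbol at 0 is therefore not shown to lack RNA.

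A few snoRNAs held most of the counts in either class. Snord110, SNORD58 and Snord104 made up 63.4% of all C/D counts, and between 59.7% and 65.1% in the single libraries. Snord110 had 4494, 5378, 3391 and 3761 counts at 3, 9, 15 and 21 months, SNORD58 3471, 5787, 3448 and 3652, and Snord104 3938, 3059, 2078 and 3059. Per length, the mean level over the libraries was 8041 CPM per 100 bases for Snord110, 8087 for SNORD58 and 5507 for Snord104. The next snoRNAs were much lower, with 1689 CPM per 100 bases for SNORD101 and 1317 for Snord100, which lie in introns of Rps12. In the H/ACA class Snora7a alone held 39.3% of the counts (921, 1147, 1145 and 773) with 962 CPM per 100 bases. It was followed by SNORA55 with 389 (570, 414, 317 and 298 counts), SNORA71 with 215 (170, 268, 226 and 182), SNORA14 with 125 (149, 124, 97 and 148) and SNORA38 with 106 (112, 141, 95 and 107). SNORA14 lies in Tomm20, a gene of the mitochondrial import machinery. For a symbol with several loci, these levels per length were divided by the median length of 1 locus. Those of SNORD58, SNORA55, SNORA71 and SNORA38, with 4, 7, 15 and 6 loci, are therefore sums over copies. Reads came from 5’-ends, so a level per length need not follow the number of molecules. The median of the summed counts was 233 for C/D and 121 for H/ACA snoRNAs, compared with 61 for all 7362 genes with at least 20 counts.

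**Figure D1:**
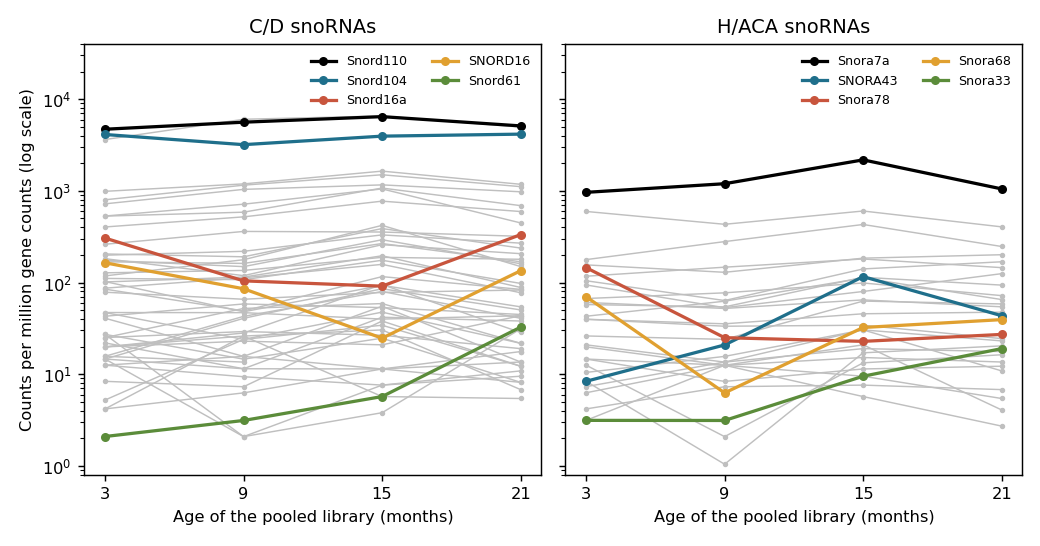
Level of each C/D (left) and H/ACA (right) snoRNA in CPM (log axis) in the 4 pooled libraries, one line per snoRNA with selected ones in colour and the others in grey, points at 0 left out. Most lines have their highest point at 15 months, whereas Snord16a and SNORD16 are lowest there and Snora78 and Snora68 are highest at 3 months.

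Both classes had their highest level in the library of 15 months. C/D snoRNAs took up 1.94%, 2.28%, 2.84% and 2.24% of the gene counts at 3, 9, 15 and 21 months, and H/ACA snoRNAs 0.289%, 0.281%, 0.469% and 0.302%. The level at 15 months was 1.46 times that at 3 months for C/D (95% interval 1.43 to 1.5) and 1.62 times for H/ACA (1.54 to 1.71). At 21 months the ratios were 1.16 (1.13 to 1.18) and 1.04 (0.987 to 1.10), and the interval of the H/ACA class included 1. At 9 months they were 1.17 (1.15 to 1.20) and 0.971 (0.920 to 1.02). The H/ACA values depended on the most abundant snoRNAs. Without the 3 most abundant, the H/ACA ratio was 1.141 (1.046 to 1.245) at 21 months and 0.779 (0.711 to 0.852) at 9 months. Without Snora7a alone it was 1.02 (0.953 to 1.09) and 0.835 (0.780 to 0.894). These intervals, exact and from the counts alone, cover counting error only and not the spread between mice or pools. In pooled tissue, fewer cells of a type cannot be told apart from less RNA per cell.

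**Figure D2:**
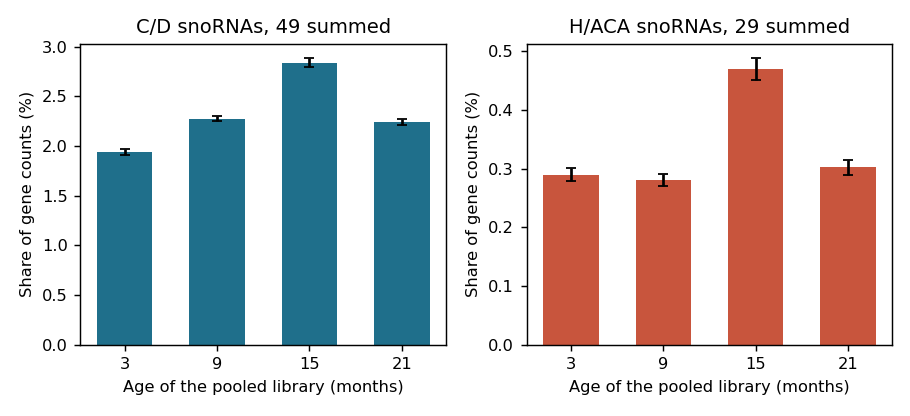
Share of all gene counts (%) held by the 49 C/D and the 29 H/ACA snoRNAs in the library of each age; bars are the value of 1 pooled library and whiskers the 95% Wilson interval for counting error. In both classes the bar at 15 months (2.84% and 0.469%) is the highest.

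Without the 3 most abundant C/D snoRNAs, the ratio of 15 to 3 months was 1.65. In the H/ACA class it was 1.3 without Snora7a and 1.28 without the 3 most abundant. The choice of the library scale kept the direction. The ratio of 15 to 3 months was between 1.34 (geometric mean of the genes) and 1.56 (total of protein-coding genes) for C/D, and between 1.48 and 1.72 for H/ACA on the same scales. The 15-month library also had the fewest gene counts and the highest share of ambiguous records (0.473%, compared with 0.377% to 0.397% in the others). Its summed level of the endothelium markers was the lowest (274 CPM, compared with 344 to 387 CPM in the others). That of the stellate cell markers was the highest (257 CPM), but near the 245 CPM at 21 months, and the others had 132 and 187 CPM. Snord13, a snoRNA that is transcribed from its own promoter, had 35129, 52856, 61753 and 39774 CPM and was highest there as well. The part of these differences in the result was not tested. In contrast, the 10 small Cajal body RNAs with at least 20 counts, which carry the same boxes, had 685, 366, 580 and 439 CPM in sum and were highest at 3 months. U3, a capped C/D RNA of ribosomal RNA processing, took up 1.27%, 4.58%, 0.770% and 1.62% of the gene counts and was highest at 9 months.

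The ratio of C/D to H/ACA counts within a library does not depend on its scale. It was 6.70, 8.11, 6.05 and 7.42 at 3, 9, 15 and 21 months. Relative to 3 months it was 1.21 (1.14 to 1.28) at 9 months, 0.903 (0.851 to 0.958) at 15 months and 1.11 (1.04 to 1.18) at 21 months, with 95% intervals for counting error. With all snoRNAs included, the C/D class therefore held the largest portion of the snoRNA counts at 9 months and the smallest at 15 months. The lower portion at 15 than at 3 months depended on Snora7a. Without Snora7a, the H/ACA level rose 1.3-fold from 3 to 15 months, less than the 1.46-fold of the C/D class. Without the 3 most abundant snoRNAs of each class, H/ACA rose 1.28-fold and C/D 1.65-fold.

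Counted by snoRNA, 30 of 49 C/D (61.2%) and 15 of 29 H/ACA snoRNAs (51.7%) had their highest CPM at 15 months, compared with 30.1% of all 7362 genes. On the geometric mean scale these were 26 and 12, compared with 23.8% of all genes. The median log2 ratio of 15 to 3 months was 0.61 for C/D and 0.56 for H/ACA, and 0.04 for all genes. Scaling by protein-coding genes shifted the median of all genes to 0.13, and those of C/D and H/ACA to 0.70 and 0.65. The medians at 9 months were 0.14 and -0.16 (all genes -0.04), and those at 21 months 0.17 and 0.37 (all genes 0.01). These comparisons share the library of 3 months.

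More than 2-fold higher at 15 than at 3 months were 10 C/D and 11 H/ACA snoRNAs, compared with 15.3% of all genes, and more than 2-fold lower were 5 and 4, compared with 13.7%. At 21 months, 6 C/D and 6 H/ACA snoRNAs were more than 2-fold higher (13.4% of all genes) and 5 and 3 more than 2-fold lower (13.3%). At 9 months, 5 and 2 were higher (10.5%) and 5 and 4 lower (13.4%). A count of 0 was set to 3 counts for these ratios, which concerned Snord123 at 15 months among the snoRNAs. The share of H/ACA snoRNAs more than 2-fold higher at 15 months (37.9%) and that of C/D snoRNAs (20.4%) can be set beside the 15.3% of all genes. Among these H/ACA snoRNAs, only Snora7a, Snora28 and Snora33 have a single locus, and the others are sums over copies. The intervals of Snora28 (0.738 to 8.48), SNORA3 (0.700 to 6.09) and Snora33 (0.590 to 19.5) included 1. In the C/D class those of Snord61 (0.312 to 32.7) and Snord15a (0.647 to 13.1) did. The count of C/D snoRNAs depended on the scale, with 15 of 49 on the total of protein-coding genes, compared with 16.7% of all genes, and 9 of 49 on the geometric mean, compared with 12.9%.

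**Figure D3:**
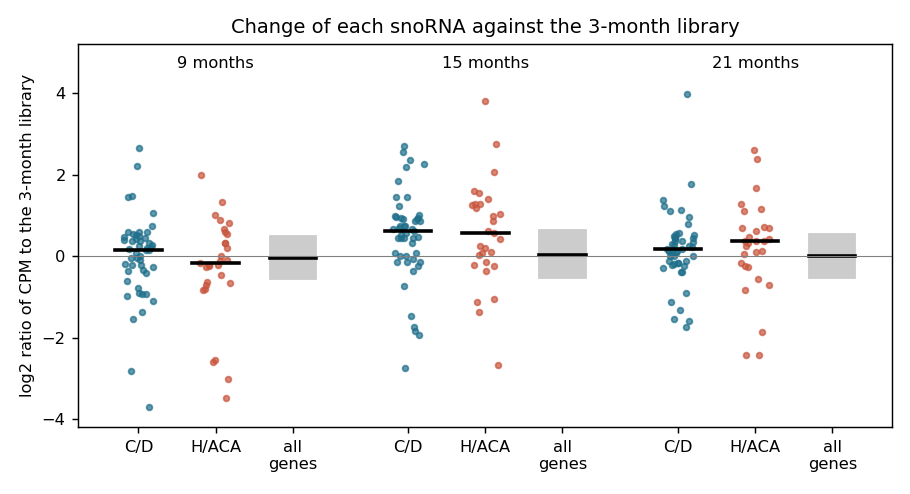
log2 ratio of CPM to the 3-month library for each C/D and H/ACA snoRNA (points) at 9, 15 and 21 months; black bars are medians and grey boxes the interquartile range of all 7362 genes. The medians at 15 months (0.61 and 0.56) stand above that of all genes (0.04).

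The most abundant C/D snoRNAs were not alike. Snord110 was 1.37-fold higher at 15 than at 3 months (1.31 to 1.43) and SNORD58 1.81-fold (1.72 to 1.89), whereas Snord104 had a ratio of 0.959 (0.909 to 1.01) and was lowest at 9 months (0.775, 0.739 to 0.812). SNORD101 had 945, 1142, 863 and 868 counts and Snord100 690, 995, 611 and 719. Both come from Rps12, and both were highest at 15 months in CPM (1.66-fold and 1.61-fold over 3 months). Snord37, in an intron of the elongation factor gene Eef2, had 507, 561, 564 and 508 counts and was 2.02-fold higher at 15 months (1.79 to 2.28). Snord72, in Rpl37, had 113, 170, 221 and 110 counts and a ratio of 3.56 (2.82 to 4.5) at 15 months. Snord49a had 508, 686, 552 and 329 counts. Its ratio was 1.98 (1.75 to 2.23) at 15 months, but it was below its 3-month level at 21 months (0.841, 0.730 to 0.968).

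Whether the 4 counts of a snoRNA differed by more than counting noise was asked with a chi-square test, adjusted after Benjamini-Hochberg for all 7362 genes. It compares the 4 libraries and not the ages. It was passed by 38 of 49 C/D and 16 of 29 H/ACA snoRNAs, compared with 33.0% of all genes. Genes with more counts pass this test more easily. Among those with at least 100 counts, 28 of 32 C/D and 12 of 17 H/ACA snoRNAs passed, compared with 46.7% of 2447 genes. The smallest adjusted p-values of the C/D class belonged to SNORD58 (1.31e-154), Snord16a (4.32e-36), Snord49a (9.19e-35), Snord110 (2.16e-31) and Snord72 (6.82e-30). In the H/ACA class these were Snora7a (2.22e-73), Snora78 (7.29e-33), SNORA43 (7.78e-20), SNORA71 (9.16e-13) and Snora68 (6.72e-10).

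Snora7a held 46.4% of the H/ACA counts at 15 months and 33.3% at 3 months. It was 2.26-fold higher there than at 3 months (2.07 to 2.47) and 1.09-fold at 21 months (0.989 to 1.20). SNORA71 behaved similarly with 2.42 (1.97 to 2.97), whereas SNORA55 had a ratio of 1.01 (0.879 to 1.16) at 15 months and 0.679 (0.588 to 0.783) at 21 months. SNORA43 had 8, 20, 61 and 32 counts, a ratio of 13.9 (6.61 to 33.5) at 15 months and of 5.2 (2.34 to 13.0) at 21 months. Its symbol stands for 2 loci, 1 in D730040F13Rik and 1 opposite to an exon of Fxc1, which had 1, 10, 4 and 6 counts in total. Of the windows of the locus in D730040F13Rik, 98 of 99 had a further match in the genome, and 5 of 105 of those of the locus opposite to Fxc1. Alignments that were not unique were not counted, so few reads of the locus in D730040F13Rik could be counted. The strand setting of the counting was not given in the sources used here.

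Highest at 3 months were 6 of 49 C/D (12.2%) and 7 of 29 H/ACA snoRNAs (24.1%), compared with 25.7% of all genes. Snora78 had 139, 24, 12 and 20 counts, which was 145 CPM at 3 months and between 22.8 and 27.2 CPM later. Its ratios to 3 months were 0.172 (0.107 to 0.267), 0.157 (0.0792 to 0.283) and 0.187 (0.111 to 0.300), and the intervals of the 3 later libraries overlapped. Its host Snhg9 had 0, 3, 5 and 3 counts. Snora68 had 67, 6, 17 and 29 counts and was lowest at 9 months (0.0893, 0.0316 to 0.205). Of the windows of Snora68, 34.0% had a further match in the genome, of those of Snora78 none. Snord35b had 26, 2, 4 and 8 counts.

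Snord16a and SNORD16 moved against the majority of C/D snoRNAs. Snord16a had 292, 100, 48 and 245 counts and SNORD16 157, 82, 13 and 99. The ratio of 15 to 3 months was 0.299 (0.215 to 0.407) and 0.151 (0.0784 to 0.265), and at 21 months it was 1.09 (0.916 to 1.3) and 0.819 (0.630 to 1.06). Both snoRNAs were thus low in the libraries of 9 and 15 months and near their 3-month level at 21 months. Their sequences are identical at 88 of 99 bases (88.9%), and neither had a window of 35 bases with a further match. SNORD18, whose 3 loci lie in the same host gene, had 41, 56, 28 and 33 counts and did not pass the chi-square test (adjusted p = 0.436). The host gene Rpl4 had 49, 35, 41 and 34 counts. Within the libraries, the ratio of Snord16a to SNORD18 was 7.12, 1.79, 1.71 and 7.42 at 3, 9, 15 and 21 months. Counting intervals of 5.12 to 10.1 at 3 months and 1.05 to 2.84 at 15 months do not overlap, and this comparison is free of the library scale.

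**Figure D4:**
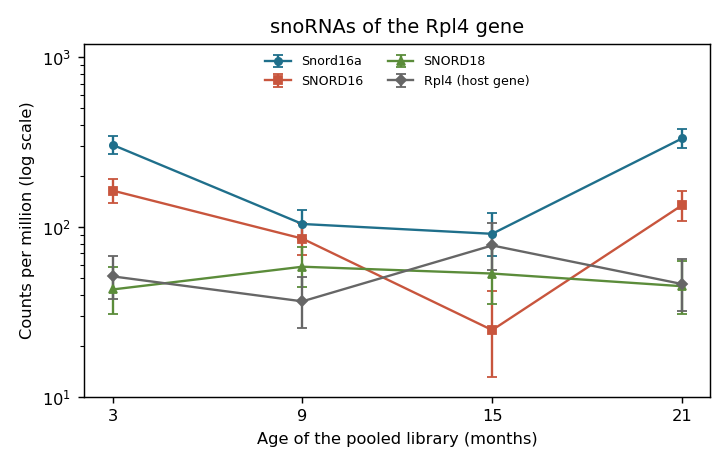
CPM (log axis) of Snord16a, SNORD16, SNORD18 and their host gene Rpl4 in the library of each age; points are 1 pooled library each and whiskers exact 95% Poisson intervals for counting error. Snord16a and SNORD16 fall to 91.3 and 24.7 CPM at 15 months, whereas SNORD18 and Rpl4 stay between 36.5 and 78.0 CPM.

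Other snoRNAs of a common host were compared in the same way. In 2410006H16Rik the ratio of Snord49a to Snord49b was 2.59, 3.75, 2.71 and 1.88, and the intervals at 9 months (3.18 to 4.44) and 21 months (1.56 to 2.27) did not overlap. The ratio of Snord49a to Snord65 was 4.79, 6.66, 6 and 4.57, and here the intervals at 9 months (5.41 to 8.28) and 21 months (3.53 to 5.98) overlapped. In Rps12 the ratio of SNORD101 to Snord100 was 1.37, 1.15, 1.41 and 1.21, and the intervals at 9 months (1.05 to 1.25) and 15 months (1.27 to 1.57) did not overlap. In Eef1b2, the gene of an elongation factor subunit, Snora41 had 100, 61, 74 and 124 counts and SNORD51 21, 11, 22 and 28, with ratios between 3.36 and 5.55 and overlapping intervals in all libraries. Of the windows of Snora41, 83.7% had a further match in the genome, of those of SNORD51 none. In Ncl, the nucleolin gene, the ratio of Snord82 to SNORD20 was 31.3, 49.4, 9.35 and 26.1. SNORD20 had 8, 7, 20 and 9 counts, and the intervals at 9 months (23.7 to 124) and 15 months (5.88 to 15.7) did not overlap.

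In most of the pairs of a snoRNA and its host gene, the host had fewer counts. For 33 single-locus snoRNAs with 1 host of at least 20 counts (28 host genes), the snoRNA had more counts than the whole host gene in 21 cases. This was most pronounced for Snord110, with 17024 counts compared with 44 for Nop56. In contrast, Snora31 had 31 counts and its host Tpt1 1391. Across these pairs, Spearman's rho of the 21 over 3 month log2 ratios was 0.0654 and that of the mean CPM 0.0147. Several host ratios rest on few counts, such as 3 and 8 for Ptcd3 and 4 and 8 for Rpl13a. The rho of the ratios therefore cannot tell whether snoRNA and host change together. Pairs in which snoRNAs share a host are not independent, and all ratios share both libraries. Rps12, the host of 3 snoRNAs, is listed at 0 in every library. Further matches in the genome were looked for in snoRNA loci only, so reads of host genes lost as not unique are not known.

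A linear change with age was asked with edgeR's quasi-likelihood test over all 4 libraries, which leaves 2 residual degrees of freedom. With Benjamini-Hochberg adjustment it called 0 of the 78 snoRNAs and 0.0% of the 7362 genes. At an unadjusted p of 0.05 it picked 2 C/D and 5 H/ACA snoRNAs and 347 genes in all. DESeq2's Wald test called 0 snoRNAs and 0 of the 7362 genes as well. At an unadjusted p of 0.05 it picked 4 snoRNAs and 135 genes in all. The smallest adjusted p-values of edgeR belonged to Snora78 (-2.58 log2 over 18 months, adjusted p = 0.404) and Snord61 (4.17, adjusted p = 0.661). Snora78 was called in edgeR with filterByExpr (adjusted p = 0.0124), where 6 of 5569 genes were called. Without the 21-month library 7 of 72 snoRNAs and 22 of 6504 genes were called. Without the 3-month library the slope of Snora78 was 0.0757. Snord61, in Rbmx on the X chromosome, had 2, 3, 3 and 24 counts, and its ratio of 15.6 at 21 months has an interval from 3.87 to 136. Next came SNORA43 (2.86), Snord89 (1.78 with 14, 39, 45 and 37 counts), SNORA36 (1.41 with 25, 23, 33 and 43 counts), Snora33 (2.80 with 3, 3, 5 and 14 counts) and Snora41 (0.88), all with an adjusted p of at least 0.795 in edgeR. SNORD73 (15, 41, 42 and 30 counts), SNORD59 (386, 499, 406 and 438) and SNORD51 completed the 5 smallest of the C/D class with slopes of 1.40, 0.67 and 1.16.

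The variance of the centered log-ratio (clr, natural logarithm, over genes with a count in every library) is the measure of stability used by the study. Its median was 0.0917 for 48 C/D and 0.127 for 29 H/ACA snoRNAs, compared with 0.160 for all 8704 genes and 0.127 for the 7141 of them with at least 20 counts, the minimum that the snoRNAs had to pass. With at least 10 counts in every library the order turned, with a median of 0.0748 for 52 snoRNAs and 0.0568 for 3382 genes. The counting noise expected from the counts alone had a median of 0.0229 for C/D and 0.0455 for H/ACA snoRNAs, and of 0.0756 for these 7141 genes. The variance was above the counting noise for 40 of 48 C/D (83.3%) and 24 of 29 H/ACA snoRNAs (82.8%), compared with 77.7% of the 7141 genes. The median ratio of the variance to the counting noise was 6.28 for C/D and 3.69 for H/ACA snoRNAs, compared with 2.09 for these genes. At the same variance, this ratio is higher for genes with more counts.

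The lowest variances in the C/D class were those of Snord83b in Rpl3 (0.00699), Snord104 (0.0115) and Snord110 (0.0122). Snord83b had 75, 63, 41 and 61 counts, so that its CPM differed by at most 1.26-fold, and its variance was below that of counting noise (0.0175). In the H/ACA class SNORA70 (0.00482 with 58, 50, 34 and 40 counts), SNORA54 in Nap1l4 (0.0101 with 38, 34, 24 and 35 counts) and SNORA42 (0.0182 with 64, 74, 52 and 53 counts) were lowest. For SNORA70 and SNORA54 the variance was below that of counting noise (0.0229 and 0.0315), and for SNORA42 it was near it (0.0168). The highest variances were found at low counts, for Snord90 (1.52 with 14, 2, 2 and 23 counts), Snord61 (1.43) and Snord35b (1.11) in the C/D class, and for SNORA3 (1.76 with 8, 1, 9 and 15 counts), SNORA43 (1.15) and Snora68 (1.04) in the H/ACA class.

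**Figure D5:**
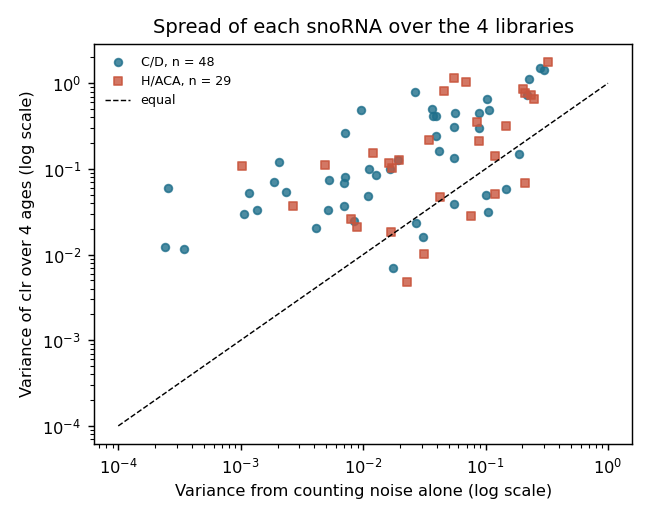
Variance of clr over the 4 libraries against the variance expected from counting noise alone (both log axes) for 48 C/D and 29 H/ACA snoRNAs; the dashed line marks equal values. Abundant snoRNAs (left) lie above the line, and 8 C/D and 5 H/ACA snoRNAs lie below it.

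The proteins that bind, assemble and process snoRNAs were hardly measurable. Of 23 such genes, all listed in the files, 8 had at least 20 counts. None of these 8 passed the chi-square test or the age trend in either direction, and none had an unadjusted p under 0.05 in the trend. Nop10, a small H/ACA core protein, had 33, 33, 22 and 20 counts, and Nhp2, a further core protein of this class, 17, 13, 4 and 4. For the C/D class, Fbl, the gene of the methyltransferase fibrillarin, had 8, 12, 0 and 6 counts, Nop56 9, 17, 6 and 12, and Nhp2l1, a protein that binds the boxes, 9, 5, 2 and 4. Nolc1, a nucleolar assembly factor, had 5, 6, 8 and 13 counts, the nuclease Xrn2 14, 14, 3 and 12, and the exosome subunit Exosc10 7, 7, 2 and 6. The others were between 1 and 18 counts in sum, among them Dkc1, the gene of the pseudouridine synthase dyskerin, with 2, 3, 1 and 2.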

How the data were processed

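RNA of pooled mouse liver was sequenced in 1 library per age (3, 9, 15 and 21 months). Uncapped RNA had been digested and 35-base reads from capped 5’-ends were sequenced on a SOLiD instrument on 1 lane. The authors mapped reads to mm9 with the CLC Genomic workbench (similarity 0.95, length fraction 0.95). HTSeq is named in the submitters' processing notes; its version, mode and strand setting were not given in the sources used here. The deposited files hold raw counts of reads per gene symbol. The final rows, which count unassigned records, were left out of all sums.

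Levels are counts per 1000000 gene counts (CPM). A ratio of 2 libraries has an exact Clopper-Pearson interval and a share a Wilson interval, at 95%; both cover counting error only. With 1 library per age, tests compare libraries, and p-values do not cover the spread between mice. Expected shares of the chi-square test (df 3) followed the geometric means of the libraries. The age trend was fitted with edgeR 4.0.16 (TMM, genes with at least 20 counts, adjusted p of 0.05) and alternatively with DESeq2 1.42.0, in R 4.3.3. The clr variance has divisor 3. The trend and chi-square tests were checked on simulated counts with large shifts in well-counted genes. The simulated counts for the trend had less dispersion than the data (common dispersion 0.0882). Those for the chi-square test had counting noise only. These checks therefore do not show the power of the tests in the 4 libraries. Other steps used Python 3.11.15 (scipy 1.17.1, pandas 2.3.3, matplotlib 3.10.9, numpy 2.4.6).

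Loci, hosts (a gene whose span on the same strand contains the snoRNA) and sequences come from NCBIM37 with GENCODE M1, the build of the files. Named snoRNAs were, per class, the 5 with the most counts per length, the 5 with the smallest p of the trend and of the chi-square test, the 3 highest and 3 lowest clr variances and the 2 nearest the minimum on each side, with their hosts and 23 snoRNA protein genes; some items are not reported here. Snord16a's neighbours, Snord37, snoRNAs sharing a host, Snora31, Snord13, U3 and Fxc1 were named after their values were seen. The members, the list of protein genes and the marker lists were chosen with earlier results of these data known. Snord123 shares its symbol with a longer noncoding RNA, so its counts may not be those of the snoRNA.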

Additional observations from a re-analysis of the deposited data

How the results depend on the processing

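No paired analysis was possible because each age had 1 library. Symbols at 0 or a few counts give no usable value, and differences between pools could not be separated from those between ages.

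Among scales, the geometric mean moved the C/D ratio of 21 to 3 months from 1.16 to 1.13, outside its counting interval. With the 15-month library in place of 21 months it was 1.46 for C/D and 1.62 for H/ACA, and with 9 months 0.971 for H/ACA; the ratio of C/D to H/ACA counts turned from 1.11 to 0.903 at 15 months. The other alternatives of these 3 results (other scales, count minimums of 10 and 50, without the most abundant snoRNA) kept direction and stayed within the counting interval, or past the threshold of a Fisher's exact test. Scales for the ratio of 15 to 3 months were added after the data had been seen. They gave 1.43 (TMM), 1.38 (DESeq2), 1.34 (geometric mean) and 1.56 (protein-coding total) for C/D, and 1.53, 1.48 and 1.72 on the last 3 for H/ACA, all above 1.

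The count of snoRNAs with an age trend was 0, and 1 with filterByExpr and 1 without a filter, in both cases Snora78 (edgeR adjusted p = 0.0124 and 0.00236), compared with 6 of 5569 and 9 of 15067 genes in all. Leaving out 1 library gave between 0 and 7 calls. The 7 appeared without the 21-month library (SNORA43, SNORD16, SNORD45, Snora78, Snord16a, Snord72 and Snord89), 1 without the 3-month library (Snord16a), 1 without the 9-month library (Snora78) and 0 without the 15-month library; these fits have 1 residual degree of freedom. Over all genes they called 22 of 6504, 9 of 6237, 5 of 6301 and 0 of 6747 in the same order. The slope of Snora78 was between -4.54 and 0.0757 and that of SNORD73 between -0.16 and 3.39 log2 over 18 months, and both turned sign without the 3-month library. The median clr variance of all 77 snoRNAs was 0.110, and between 0.0687 (without 15 months) and 0.105 with a library left out. With at least 10 counts in every library it was 0.0748 for 52 snoRNAs, above the 0.0568 of 3382 genes, whereas 0.110 was below the 0.160 of all 8704 genes. The cause was not tested. The number of snoRNAs past the chi-square test, 54 of 78 (2428 of 7362 genes), was between 43 and 57 in all alternatives, but the number tested differed. With a count minimum of 10 it was 57 of 90 (2848 of 9573 genes). Without the 3-month library it was 43 of 74 (1405 of 6237 genes), and without the 15-month library 43 of 75 (1734 of 6747 genes).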
